A study of Mus musculus with 5 samples.

Results

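The sites described here are the SOX11 and SOX4 ChIP-seq peaks that lay outside protein-coding genes and far from their starts. A peak was taken as distal when its centre was outside the body of every protein-coding gene and more than 100 kb from the nearest protein-coding transcription start of the mouse genome mm9. By this rule 2029 of 21270 SOX11 peaks (9.54%, 95% Wilson interval 9.15 to 9.94%) and 272 of 2669 SOX4 peaks (10.2%, interval 9.10 to 11.4%) were distal. They were compared with the nearer intergenic peaks, whose centres were also outside every protein-coding gene but 1 to 100 kb from a start. There were 6475 of these for SOX11 and 792 for SOX4.

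ChIP-seq was carried out on cultured keratinocytes from newborn dcKO mice, which carry Krt14-Cre with Sox11 fl/fl and Sox4 fl/fl, so that Cre under the Krt14 promoter deletes both genes in basal epidermal cells. The cells carried a lentiviral, doxycycline-inducible, FLAG-tagged Sox11 or Sox4 and received doxycycline for 24 h, so the peaks are those of an induced, tagged factor and not of the endogenous protein. There were 2 SOX11-FLAG samples, 2 SOX4-FLAG samples and 1 control library, which the labels call both an input and an IgG. The replicates of each factor were pooled by the authors in 1 list, and no list belonged to the control. Each list held chromosome, start and end of its peaks without any measure of their strength, so depth and spread between replicates are unknown. The intervals and tests below cover counting error only: peaks of 1 list are no replicates, and many lie near each other. The identity of the cells was not checked, since peak positions carry no expression.

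SOX proteins bind DNA through an HMG box that recognizes short sequences related to CTTTGTT and bends the helix. SOX4 and SOX11 belong to the SOXC group, which acts in embryonic progenitors and is reactivated in healing epidermis. Many developmental genes stand beside long stretches without coding genes, and enhancers in such gene deserts can act on promoters over long distances. AP-1, the dimer of FOS and JUN proteins, and the TEAD proteins, the DNA-binding partners of YAP and TAZ, are both active at enhancers of proliferating and migrating keratinocytes.

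The sequences below are chosen examples of distal sites and not a typical sample of them. They are given 5' to 3' on the plus strand of mm9, with matches to the SOX motif (CATTGTT, or the same letters with T in place of the A, either of them also with C as the last letter, on both strands) and to the AP-1 motif (TGAGTCA, which reads TGACTCA on the other strand) in capitals. The first 4 are whole SOX11 peaks, each with a SOX4 peak over it: the earliest listed site of the largest cluster, a site with AP-1 matches and no SOX match, a site with a SOX match and no AP-1 match, and the site farthest from a start. The last 3 are the middle 100 bp of the earliest listed distal site whose nearest start was that of Myc, Epha4 or Klf5. These 3 peaks also overlapped a SOX4 peak, as only 12.8% of all distal SOX11 sites did. The Myc peak lay inside the noncoding gene Pvt1, which the rule leaves out. Every printed site held a SOX or AP-1 match, while 27.8% of distal SOX11 sites held neither.
Jag1 to Btbd3, chr2:137392457-137392714: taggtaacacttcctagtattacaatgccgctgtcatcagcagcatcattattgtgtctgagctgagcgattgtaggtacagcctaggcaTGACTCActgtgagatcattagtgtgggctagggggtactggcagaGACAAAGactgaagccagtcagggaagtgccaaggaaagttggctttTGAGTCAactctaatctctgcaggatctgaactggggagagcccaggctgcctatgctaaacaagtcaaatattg
Akr1d1 to Trim24, chr6:37682440-37682697: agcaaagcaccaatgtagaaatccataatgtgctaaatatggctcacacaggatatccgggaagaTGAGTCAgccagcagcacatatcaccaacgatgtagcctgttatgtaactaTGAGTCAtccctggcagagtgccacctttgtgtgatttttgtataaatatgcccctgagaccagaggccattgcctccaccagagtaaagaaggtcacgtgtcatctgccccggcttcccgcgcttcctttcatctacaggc
Leprel1 to Cldn1, chr16:26247856-26248113: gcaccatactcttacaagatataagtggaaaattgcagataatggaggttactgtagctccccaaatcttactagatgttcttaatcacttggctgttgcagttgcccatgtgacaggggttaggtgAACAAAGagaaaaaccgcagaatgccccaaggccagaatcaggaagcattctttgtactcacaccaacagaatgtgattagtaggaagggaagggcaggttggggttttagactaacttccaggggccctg
Olfm4 to Pcdh17, chr14:82465137-82465394: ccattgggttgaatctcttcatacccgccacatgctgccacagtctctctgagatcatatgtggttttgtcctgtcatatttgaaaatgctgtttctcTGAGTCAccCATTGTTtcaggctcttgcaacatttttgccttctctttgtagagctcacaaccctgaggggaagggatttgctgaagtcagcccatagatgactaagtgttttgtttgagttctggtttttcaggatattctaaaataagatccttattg
Myc to Gsdmc, chr15:61993721-61993820: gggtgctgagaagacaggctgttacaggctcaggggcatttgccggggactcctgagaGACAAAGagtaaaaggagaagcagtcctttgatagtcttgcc
Slc4a3 to Epha4, chr1:76642622-76642721: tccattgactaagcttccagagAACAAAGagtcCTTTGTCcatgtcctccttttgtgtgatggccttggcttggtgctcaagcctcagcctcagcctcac
Klf5 to Klf12, chr14:99848497-99848596: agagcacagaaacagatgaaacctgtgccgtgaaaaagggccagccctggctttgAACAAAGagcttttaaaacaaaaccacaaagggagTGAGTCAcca
The Jag1 to Btbd3 site held 1 SOX and 2 AP-1 matches, and the site between Olfm4 and Pcdh17 held an AP-1 match directly followed, after 2 bases, by a SOX match. In the Slc4a3 to Epha4 site, SOX matches on opposite strands stood 4 bases apart.

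Distal sites were sparse for the space open to them. The distal territory, which is all sequence that satisfies the rule, covered 769 Mb or 30.1% of the genome's sequenced bases, nearly as much as the 777 Mb of nearer intergenic sequence. It held 2.64 SOX11 sites and 0.354 SOX4 sites per Mb. Nearer intergenic sequence held 8.33 and 1.02 per Mb, which is 3.16 times the distal density for SOX11 and 2.88 times for SOX4. Among chromosomes, the distal density of SOX11 sites ran from 0.740 per Mb on the X chromosome to 4.76 per Mb on chromosome 13.

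**Figure D1:**
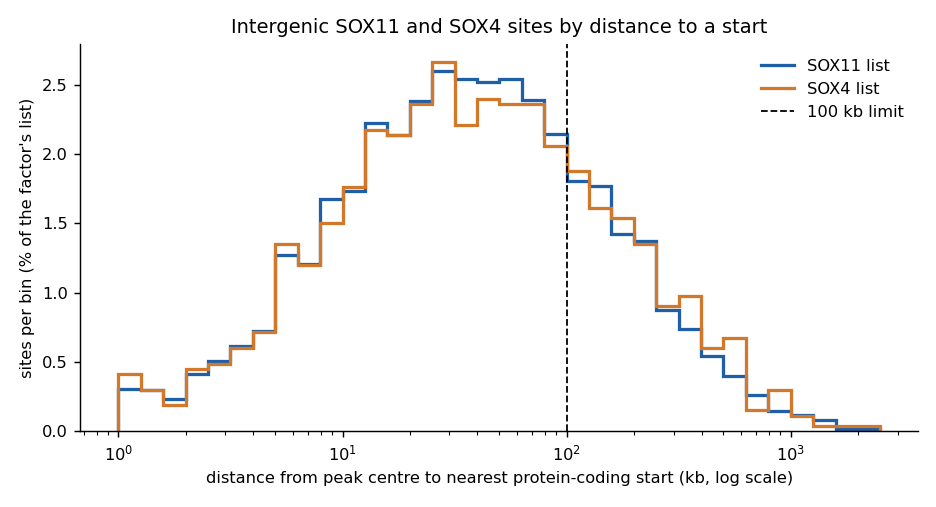
Intergenic SOX11 (blue) and SOX4 (orange) sites by distance from the peak centre to the nearest protein-coding start (kb, log scale), as percent of each factor's list per bin, with the 100 kb limit dashed. The 2 lists had nearly the same profile, and the limit cuts through its falling side rather than a gap.

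The median distal SOX11 site was 191 kb from the nearest start, with quartiles of 137 and 310 kb. For SOX4 the median was 201 kb. Of the distal SOX11 sites, 959 were over 200 kb, 219 over 500 kb and 47 over 1000 kb from any protein-coding start. Of the distal SOX4 sites 138, 36 and 6 were. The limit did not fall in a natural break of the distances. Just inside it lay SOX11 sites 100.018 kb from Rfx3, 100.081 kb from Fut8 and 100.147 kb from 2610044O15Rik, and just outside it sites 99.947 kb from Cpeb2, 99.902 kb from Jun and 99.849 kb from Hey1. The farthest site of both lists was 1 shared site on chromosome 14, at chr14:82465137-82465394 in the SOX11 list, 2065 kb from Olfm4 and in the stretch that runs to the protocadherin gene Pcdh17. The next SOX11 sites, at 2028 and 2021 kb from Cntnap5b on chromosome 1, had no SOX4 peak.

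The sites were unevenly spread over the stretches between neighbouring protein-coding genes. Of 1886 stretches with distal territory, 707 (37.5%) held at least 1 distal SOX11 site, and 290 of these held exactly 1. The 24 stretches with 10 or more held 316 sites (15.6%), and the 121 with 5 or more held 947 (46.8%). Of the 268 stretches longer than 1 Mb, 117 held none. The 10 stretches described next are those with most sites, and the empty ones named after them were picked once their values had been seen. The ranking is by count and not by length. Among the 10, sites per Mb of distal territory ran from 3.71 between Nudt12 and Efna5 to 22.8 between Klf4 and Actl7b. All distal territory had 2.64.

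The stretch with most sites, 23, was the 1208 kb between Klf4, a zinc finger factor of epidermal barrier formation, and Actl7b, an actin-related gene of the testis. It had 22.8 sites per Mb of distal territory, and 4 of its sites were shared with SOX4. Both stretches beside Myc, the growth-promoting transcription factor, held 19 sites each, of which 7 were shared with SOX4 on the A1bg side and 4 on the Gsdmc side. The stretch between Jag1, a Notch ligand, and Btbd3 also held 19, with 4 shared. A further 17 lay between Slc4a3 and the ephrin receptor gene Epha4, with 3 shared, and 15 between Plk2 and Actbl2, with 1 shared. The 3697 kb between Zeb2, a zinc finger repressor, and the activin receptor gene Acvr2a held 14 SOX11 sites and 0 SOX4 sites. Among these 10 stretches it was the only one with no distal SOX4 site.

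Sox11 itself flanked one of these stretches. The 1095 kb between Sox11 and Dcdc2c held 13 distal SOX11 sites, of which 3 were shared with SOX4. The AP-1 motif was present in 11 of the 13 and the SOX motif in 4. Between Adam34 and Fat1, an atypical cadherin gene, 9 of 13 sites held the SOX motif and 2 held AP-1, the opposite order. Between Nudt12 and Efna5, an ephrin gene, the 13 sites were spread over 3801 kb, and 1 was shared.

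**Figure D2:**
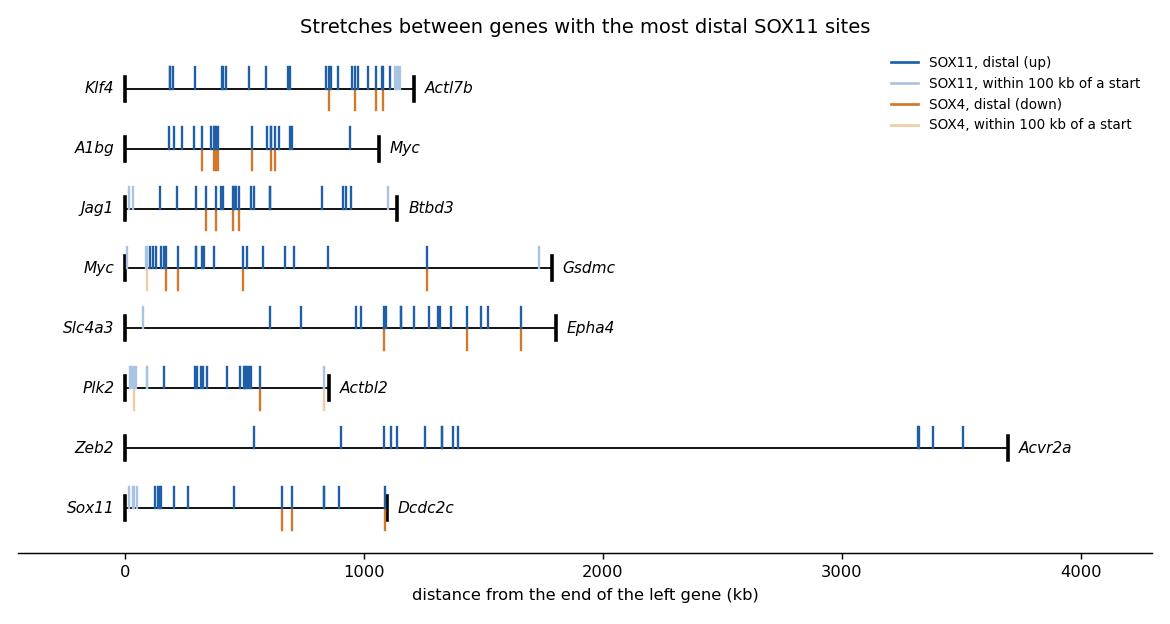
The 8 stretches between neighbouring genes with the most distal SOX11 sites, drawn to scale from the end of the left gene (kb). Ticks above the line are SOX11 peaks and ticks below it SOX4 peaks, with pale ticks for peaks within 100 kb of a start. The 19 sites between A1bg and Myc and the 23 between Klf4 and Actl7b stood in groups, while the 14 between Zeb2 and Acvr2a left most of the stretch empty.

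Other long stretches were empty. No distal site of either factor lay in the 3604 kb between the cadherin genes Cdh6 and Cdh9, the 3609 kb between Gm17624 and Vstm2a, the 3156 kb between Epha7 and Map3k7 or the 2771 kb between Alcam and Zpld1. In the 3026 kb between 4931417E11Rik and Gm9008 there was 1 distal SOX4 site and 0 distal SOX11 sites. Mappability and copy number, which the lists do not give, were not tested.

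Counted by the nearest start, Myc led with 27 distal SOX11 sites, 105 to 851 kb away. Its distal territory had 21.8 sites per Mb, and 6 of the 27 sites were shared with SOX4. The SOX motif was present in 16 of them, the TEAD motif (GGAATG) in 11 and the AP-1 motif in 10. Epha4 followed with 16 sites, 12 of them with the SOX motif. Next came Actl7b with 14 sites, Jag1 with 13, Tbl1xr1, a subunit of a nuclear corepressor complex, with 12, and Cited2, a coregulator that binds CBP and p300, with 11. Thbs1, which encodes thrombospondin, Klf5, a zinc finger factor of basal epithelial cells, Eif3h, a translation initiation factor subunit, and A1bg, a plasma glycoprotein gene, had 10 each. Osr1, Fat1, Inhba, 3110018I06Rik, Efnb2, Jmjd1c, Efna5 and Zeb2 also had 10 each, with more distal territory. Among genes with 10 or more sites Thbs1 had the highest density, 35.2 sites per Mb, with the AP-1 motif in 7 and the TEAD motif in 7 of its sites. Cited2 had no SOX4 site among its 11. The nearest start is only a position: which gene a site acts on was not measured.

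Genes of several groups were read from gene lists chosen with earlier results of these data known, so their values are a description only. The groups were set against all 3051 protein-coding genes that had distal territory. Of all these genes, 906 (29.7%) were the nearest start of at least 1 distal SOX11 site and 245 (8.03%) of at least 3, with a median of 0 sites and 2.64 sites per Mb. Of 16 epidermal transcription factors with distal territory, 11 had at least 1 site and 9 at least 3. They had 51 sites together, a median of 3 and 10.5 per Mb. Klf5 had 10, Klf4 had 9, Gata3 and Nfib had 6 each, Runx1 had 5, Maf had 4, and Id2, Prdm1 and Tcfap2c had 3 each. All 3 sites nearest to Tcfap2c, the AP-2 gamma gene, held the AP-1 motif and 0 held the SOX motif.

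Signalling genes showed a like density. In the growth factor and morphogen list, 23 of 46 genes had at least 1 site and 9 at least 3 (19.6%), with 72 sites, a median of 0.5 and 9.21 per Mb. After Jag1 with 13, the most belonged to Inhba, which encodes the activin A subunit, with 10, followed by Nrg1, a ligand of ERBB receptors, and Tgfbr2, a TGF-beta receptor, with 6 each. Erbb4 and Gli2 had 5 each, Dusp4 had 4, and Dusp10 and Spred2 had 3 each. All 6 sites nearest to Tgfbr2 lay in a single cluster of 64.4 kb, 144 to 208 kb from its start.

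Members of the SOX family were flanked too. Of 10 SOX genes with distal territory, 5 had at least 1 site, with 27 sites, a median of 0.5 and 10.1 per Mb. Sox2 had 8, Sox9 and Sox11 had 7 each, and Sox4 had 4. The SOX motif was present in 3 of the 8 sites of Sox2, in 1 of 7 for Sox9, in 1 of 7 for Sox11 and in 0 of 4 for Sox4, while the AP-1 motif was present in 6 of 7 for Sox11. None of the sites nearest to Sox11 or Sox4 was in the SOX4 list. Of the 5 AP-1, MYC and related genes, 3 had sites, 31 in all with a median of 1 and 18.7 per Mb, of which 27 belonged to Myc and 3 to Jun.

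Other groups had densities closer to that of all genes, though not their shares of genes with several sites. A gene with more distal territory has more room for sites. The median territory was 114 kb for all genes and 235 kb for the developmental factors. It was 210 kb for the epidermal factors, 245 kb for the SOX genes, 153 kb for the AP-1 and MYC group and 100 kb for the signalling genes. The part of territory in these shares was not tested. Among 64 developmental factors, 25 had at least 1 site and 10 at least 3 (15.6%), with 64 sites, a median of 0 and 3.11 per Mb. Zeb2 had 10 of these, at 538 to 1395 kb. Nr2f2 had 6, Irx1 and Lmo4 had 5 each, Bcl11a, Bcl11b and Tbx3 had 4 each, and Ets2, Foxa2 and Irx3 had 3 each. In the guidance and adhesion list, 19 of 50 genes had at least 1 site and 12 of the 50 at least 3, also above the 8.03% of all genes, with 87 sites but only 1.71 per Mb, and these genes had a median of 822 kb of distal territory. The most belonged to Epha4 with 16, Efna5 and Efnb2 with 10 each and Flrt2 with 9. Cadm1, Ncam1 and Pvrl1 had 5 each, and Cdh10, Pcdh7, Robo2, Sema3d and Slit2 had 3 each.

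Distal SOX11 sites had fewer SOX11 peaks around them than nearer ones. The rule fixes a part of this, because a distal site cannot have 1 of the 6142 peaks at a start within 25 kb of it. The distal and nearer values are therefore a description, and no test between them is given. Such a test was still 1 of the 6 whose p-values were adjusted together. The median distance to the next SOX11 site was 30.3 kb for distal and 16.4 kb for nearer intergenic sites. Another SOX11 site lay within 25 kb of 905 of 2029 distal sites (44.6%) and of 4128 of 6475 nearer sites (63.8%). The share was 69.6% at 1 to 10 kb from a start, 65.5% at 10 to 50 kb and 53.7% at 50 to 100 kb, and 47.8% among distal sites at 100 to 200 kb. Sites inside a gene but over 100 kb from any start, which the same distance keeps from start peaks, had a neighbour in 43.7% of 455 (odds ratio of distal against these 1.04, interval 0.844 to 1.27, p = 0.754, Fisher's exact test). When distal sites at most 50 kb apart were joined, 1223 of them (60.3%) fell in 419 clusters of 2 or more, and 806 stood alone. There were 50 clusters of 5 or more, with 313 sites.

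The largest cluster had 11 distal SOX11 sites in 241 kb between Jag1 and Btbd3, at chr2:137239204-137480358, 297 to 538 kb from the Jag1 start. Of its sites, 4 were shared with SOX4, 5 held the SOX motif and 2 held AP-1, and the first sequence above is one of them. The second had 10 sites in 206 kb between A1bg and Myc, at chr15:60935670-61141390, with 4 shared and 4 with the SOX motif. The 3 clusters of 9 sites lay between Tmx1 and Frmd6 over 120 kb, between Rad51l1 and Zfp36l1 over 143 kb and between Ctnna3 and Reep3 over 170 kb. The densest of these, at chr12:71702043-71821817, held the SOX motif in 3 of its 9 sites and 2 shared sites. The cluster at Zfp36l1, which encodes a protein that promotes mRNA decay, had 0 shared sites and the SOX motif in 1 of 9.

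Few distal sites lay at annotated noncoding genes. Of the distal SOX11 sites, 116 (5.72%) lay in a noncoding gene, 68 of them in a lincRNA gene, and 29 (1.43%) lay within 1 kb of a noncoding start. For nearer intergenic sites these shares were 6.83% and 3.31%. When the rule was applied to all annotated genes, only 1099 of the 2029 distal SOX11 and 146 of the 272 distal SOX4 sites were left. The others lay in some annotated gene or within 100 kb of its start.

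SOX4 was found at distal sites about as often as elsewhere. Of all SOX11 peaks, 11.9% overlapped a SOX4 peak by at least 1 bp. Of the distal SOX11 sites, 260 of 2029 did (12.8%, interval 11.4 to 14.3%), and of the nearer intergenic sites 761 of 6475 (11.8%, interval 11.0 to 12.6%). The odds ratio was 1.10 (interval 0.949 to 1.28, Fisher's exact test, two-sided, adjusted p = 0.210 over 6 comparisons), so no difference was found at this size. With increasing distance the share was 12.1% at 100 to 200 kb, 13.4% at 200 to 500 kb and 14.6% over 500 kb, with intervals that overlap. In the SOX4 list, 94.5% of all peaks and 260 of the 272 distal ones (95.6%, interval 92.4 to 97.5%) overlapped a SOX11 peak.

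The order of the SOX11 list changed this picture. The list is not in genomic order, and its position is the only other value a peak has. Distal sites stood later in it, with a median position of 13431 against 10895 for nearer intergenic sites. Of the distal sites 37.9%, against 48.8%, came before the median position of the list (odds ratio 0.641, interval 0.579 to 0.710, adjusted p = 2.15e-17, Fisher's exact test). They made up 7.33% of the first of 10 equal bins of the list and 18.3% of the last. Sites inside a gene but over 100 kb from a start stood as late, with 34.5% before the median position (odds ratio of distal against these 1.16, interval 0.938 to 1.44, Fisher's exact test, p = 0.180). SOX4 peaks overlapped mostly early sites: the 260 shared distal sites had a median position of 2796 and the other 1769 one of 14570.

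Within these bins of the list, distal sites overlapped SOX4 more often than nearer ones. In the first bin 112 of 156 distal sites (71.8%, interval 64.3 to 78.3%) and 396 of 639 nearer sites (62.0%, interval 58.1 to 65.7%) did. In the third bin the shares were 22.9% and 10.1%. The distal share was higher in 9 of 10 bins, and the Mantel-Haenszel odds ratio, which compares sites within bins, was 1.59 (interval 1.32 to 1.90). It was 1.42 (interval 1.18 to 1.72) with 5 bins of GC content added and 1.50 (interval 1.23 to 1.83) with chromosomes added. Over chromosomes alone, with no bins of the list, it was 1.08 (interval 0.925 to 1.25). What sets the order of the list is not stated, and it went with the chromosome: 27.1% of peaks in the first bin and 89.8% in the seventh were followed by a peak of the same chromosome, and chromosome 2 made up 18.9% of the first bin and 0.0940% of the last. The part of the list order in the difference was not tested further.

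**Figure D3:**
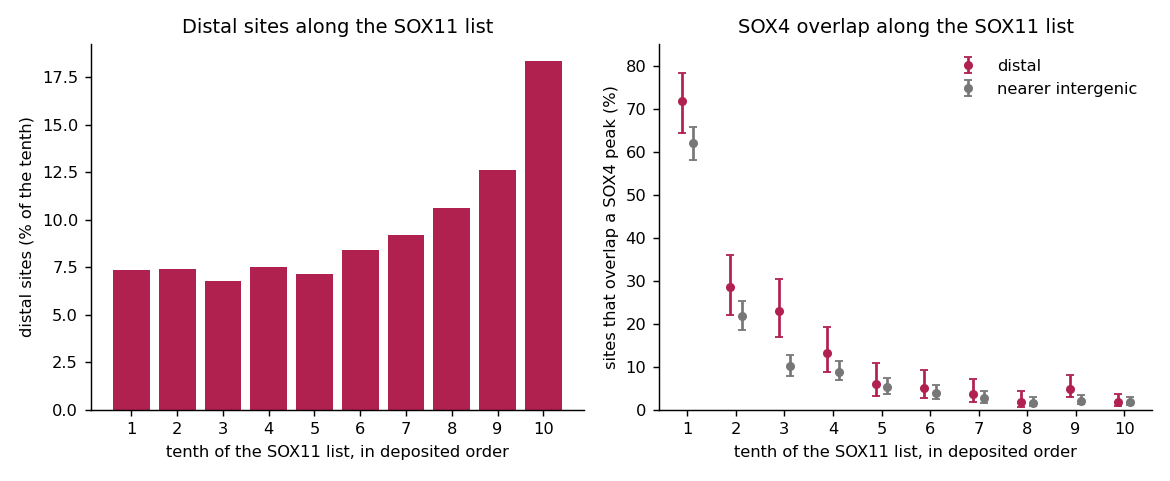
Left, distal sites as percent of each of 10 equal bins of the SOX11 list in deposited order; right, percent of distal (red) and nearer intergenic (grey) sites that overlap a SOX4 peak in each bin, with 95% Wilson intervals. Distal sites rose from 7.33% to 18.3% of a bin, and SOX4 overlap fell from 71.8% to 1.79% of distal sites.

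The 12 distal SOX4 sites without a SOX11 peak seldom held either motif. The SOX motif was present in 3 of them and the AP-1 motif in 0, against 73.5% and 43.4% of all 272 distal SOX4 sites. With 12 sites, 0 allows an AP-1 share of up to 24.2% (Wilson interval). Nearer intergenic SOX4 sites without a SOX11 peak also seldom held them, with SOX in 7 of 29 (24.1%) and AP-1 in 3 (10.3%). The earliest listed of the 12 distal sites was number 81, on chromosome 18 and 542.6 kb from the nearest start. The next was number 811 on chromosome 2, 580.5 kb from Ppp6c and 580.5 kb from any SOX11 centre. The site at chr3:34724420-34724759, 175.5 kb from Sox2, was a near miss, with its centre 0.491 kb from that of a SOX11 peak.

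The SOX motif was found in 1014 of 2029 distal SOX11 sites (50.0%, interval 47.8 to 52.1%) and in 42.8% of all SOX11 peaks. In sequences of the same width 2 kb away it was found in 20.4%. In nearer intergenic sites the share was 47.1%, with 17.5% in the shifted sequences, and the odds ratio was 1.12 (interval 1.01 to 1.24, Fisher's exact test, adjusted p = 0.0321). Distal sites had a lower mean GC content, 46.5% against 50.1%. The difference was lost, with its direction turned, when sites were compared within 10 bins of GC content (Mantel-Haenszel odds ratio 0.912, interval 0.822 to 1.01). Of the spellings, CTTTGTT was the most frequent, in 24.1% of distal sites and 8.28% of shifted sequences. It was present in 43.1% of the distal sites shared with SOX4.

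The AP-1 motif was more frequent in distal sites. It was present in 845 of 2029 (41.6%, interval 39.5 to 43.8%), in 37.2% of nearer intergenic sites and in 28.5% of all SOX11 peaks (odds ratio of distal against nearer 1.20, interval 1.09 to 1.33, adjusted p = 0.000556, Fisher's exact test). Shifted sequences held it in 5.13% and 4.59%. By distance the share went from 33.3% at 1 to 10 kb through 40.1% at 50 to 100 kb to 43.3% at 100 to 200 kb, and was 39.6% at 200 to 500 kb and 40.6% over 500 kb. For sites over 200 kb away alone, the odds ratio against nearer sites was 1.12 (interval 0.972 to 1.28), not past the threshold. Within 10 bins of GC content the Mantel-Haenszel odds ratio for all distal sites was 1.12 (interval 1.01 to 1.24). The share was higher in distal than in nearer sites on 17 of 20 chromosomes. In the SOX4 list it was present in 43.4% of distal and 35.4% of nearer intergenic peaks. The difference was no longer past the threshold within 50 bp of the centre, where the odds ratio was 1.08 (interval 0.954 to 1.22).

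The TEAD motif was also more frequent in distal sites. It was present in 643 of 2029 distal sites (31.7%, interval 29.7 to 33.7%), in 26.2% of nearer intergenic sites and in 22.8% of all SOX11 peaks (odds ratio of distal against nearer 1.31, interval 1.17 to 1.46, adjusted p = 3.33e-06, Fisher's exact test). Shifted sequences held it in 14.4% and 13.9%. The share was 24.8% at 1 to 10 kb and 37.9% (interval 31.7 to 44.5%) over 500 kb, while the mean GC content went from 51.1% to 43.2%. It was higher in distal than in nearer sites on 16 of 20 chromosomes. In the SOX4 list the order was turned, with 27.2% of distal and 28.9% of nearer peaks (odds ratio 0.919, interval 0.675 to 1.25). Sites inside a gene but over 100 kb from a start held it in 31.0%, which left an odds ratio of 1.03 for distal against these (interval 0.829 to 1.29).

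**Figure D4:**
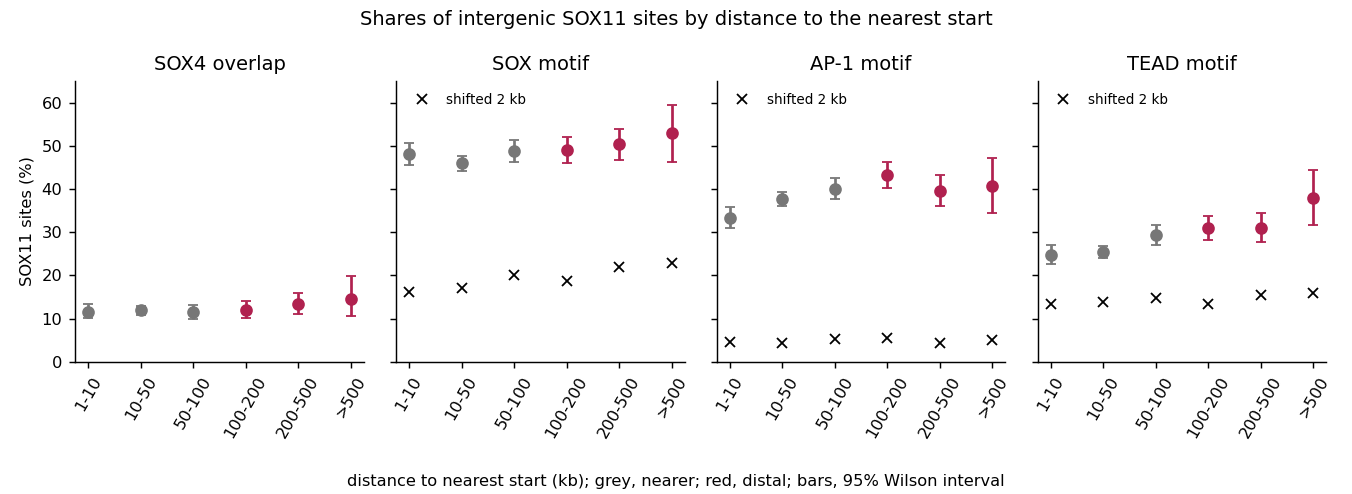
Percent of intergenic SOX11 sites that overlap a SOX4 peak or hold a SOX, AP-1 or TEAD motif, by distance to the nearest start (kb; grey, nearer; red, distal; bars, 95% Wilson intervals), with crosses for sequences shifted by 2 kb. The AP-1 share was 33.3% at 1 to 10 kb, 43.3% at 100 to 200 kb and 39.6% at 200 to 500 kb, and the TEAD share was 37.9% over 500 kb.

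SOX and AP-1 motifs were found together in 395 distal sites (19.5%, interval 17.8 to 21.2%) and in 15.7% of nearer intergenic ones. Another 30.5% of distal sites held SOX alone, 22.2% held AP-1 alone and 27.8% held neither. Where both were present, their median separation was 56 bp, and in 100 of the 395 sites it was within 30 bp. Nearer intergenic sites with both had a median separation of 55 bp, within 30 bp in 278 of 1015. A second SOX match was present in 9.36% of distal and 8.69% of nearer intergenic sites.

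The SOX motif stood at the peak centre. Within 25 bp of it there were 5.99 SOX matches per site per kb of sequence, and beyond 400 bp there were 0.833. AP-1 matches were spread more widely, with 2.27 within 25 bp, 2.54 between 25 and 50 bp and 0.266 beyond 400 bp. TEAD matches rose least, to 1.72 within 25 bp from 0.648 beyond 400 bp. Nearer intergenic sites had much the same profile at these distances. Their values were 5.82 and 0.742 for SOX, 2.14, 2.26 and 0.238 for AP-1, and 1.37 and 0.619 for TEAD. At distal sites shared with SOX4, the SOX density within 25 bp was 12.5. The AP-1 density there was 1.38 within 25 bp and 3.15 between 25 and 50 bp.

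**Figure D5:**
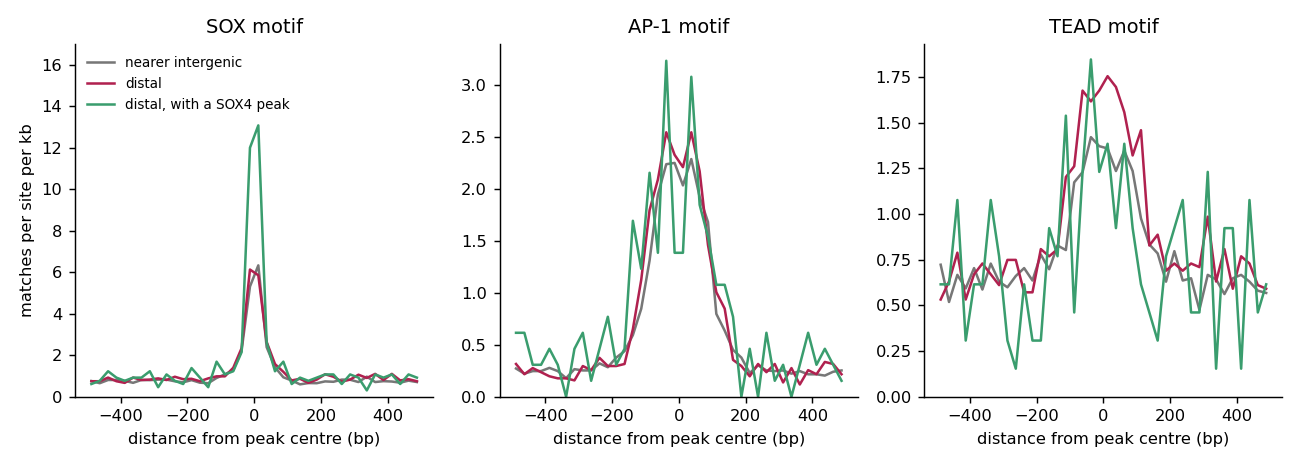
Matches per site per kb in bins of 25 bp around the peak centre (bp) for distal (red), nearer intergenic (grey) and shared distal (green) SOX11 sites; the vertical scales differ between panels. SOX matches peaked at the centre, at 12.5 per kb within 25 bp in shared distal sites, while AP-1 matches in distal sites were highest 25 to 50 bp away from it.

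Shared and unshared distal sites differed in sequence. The SOX motif was present in 73.8% of the 260 shared sites and 46.5% of the 1769 others (odds ratio 3.25, interval 2.43 to 4.36, adjusted p = 3.52e-16, Fisher's exact test over 6 comparisons chosen after the data were seen). Within bins of the list the odds ratio was 2.12 (interval 1.51 to 2.99). The TEAD motif was less frequent in shared sites, at 24.6% against 32.7% (odds ratio 0.671, interval 0.498 to 0.905, Fisher's exact test, adjusted p = 0.0248). The AP-1 motif did not differ beyond counting error, at 40.0% and 41.9% (odds ratio 0.925, interval 0.709 to 1.21, Fisher's exact test, adjusted p = 0.885). Set against shared sites nearer to genes, shared distal sites had the SOX motif as often within the error (73.8% against 74.4%, odds ratio 0.973, interval 0.706 to 1.34), and the AP-1 motif in 40.0% against 33.6% (odds ratio 1.32, interval 0.984 to 1.76, Fisher's exact test, adjusted p = 0.142). Within bins of the list the AP-1 odds ratio was 1.36, and its unadjusted interval of 1.02 to 1.83 left out 1.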

How the data were processed

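The authors aligned reads of 50 bp against mm9 by Bowtie2 in default single-end mode, dropped duplicates (Picard MarkDuplicates), ran HOMER findPeaks in factor style and took out blacklisted regions by bedtools (tool versions, peak thresholds and the control used: not given in the sources used here). The deposited values are peak coordinates, of another kind than counts or signal, in 1 list per factor. Starts are 0-based in the files and printed from 1. Nearly every SOX11 peak was 258 bp wide and nearly every SOX4 peak 340 bp.

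Genes came from the GENCODE M1 annotation of mm9: a start was that of any transcript of a protein-coding gene, and a gene body its whole span. Each peak was placed by its centre. Sequence was read with pysam 0.24.0 and samtools 1.23.1 and motifs were searched as exact letters on both strands. Fisher's exact tests (two-sided, scipy 1.17.1) compared counts of peaks, and 6 main p-values were adjusted by Benjamini-Hochberg. The share with a neighbour within 25 kb, which the rule partly fixes, gave 1 of these 6. Mantel-Haenszel odds ratios compared peaks within bins of list position, GC content or chromosome. The tests, placement and motif search were tested on simulated data. Of 95 alternatives, 30 were chosen after seeing the data.

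Sites, genes and lists were chosen with earlier results of these data known. Named were the 10 genes nearest to most distal SOX11 sites (ties by density, with the genes tied at the last place named too), list genes with at least 3, the earliest shared sites, the farthest sites, those around the limit, distal SOX4 sites without SOX11 and the largest clusters. The stretches between genes and the printed sites of Myc, Epha4 and Klf5 were chosen after their values were seen. For the gene lists, 3 symbols were matched by older names.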

Additional observations from a re-analysis of the deposited data

How the results depend on the processing

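The 6 shares and both counts of sites were recomputed under the alternatives, which gave 95 values. Of these, 6 were counts of sites, which have no direction or threshold. Another 70 kept their direction and their side of the threshold, and these take in the shifted sequences for SOX described below. Odds ratios are for distal against nearer intergenic SOX11 sites. SOX4 overlap passed the threshold within 10 bins of the list (1.59), with GC content added (1.42) and with chromosomes added (1.50). Against sites in a gene over 100 kb from a start, the odds ratios turned for a neighbour within 25 kb (1.04), for a place in the earlier part of the list (1.16) and for the SOX motif (0.952), and TEAD lost its call (1.03). The SOX motif also turned within bins of GC content (0.912), within bins of list and GC content (0.962) and in the SOX4 list (0.996), and lost its call with 1 site per cluster (1.04), with all annotated genes (1.11), with 10 letters and 1 mismatch (1.07) and within 50 bp of the centre (1.09). AP-1 lost its call for sites over 200 kb away (1.12) and within 50 bp (1.08). TEAD turned in the SOX4 list (0.919). The interval of each turned odds ratio held 1, so none of them is a difference in the other direction. Sequences shifted by 2 kb are background rather than another form of the result: they gave 1.12 for AP-1 and 1.04 for TEAD, neither past the threshold, and 1.21 for SOX, past it. The cause of these changes was not tested. Distal SOX11 sites numbered 3537 over 50 kb, 959 over 200 kb and 1099 with all annotated genes, and distal SOX4 sites 455, 138 and 146.

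No paired analysis was possible because each list joins the replicates of its factor, and leaving 1 out was not possible either. The lists give no heights, so weak and strong sites cannot be told apart, and neither depth nor mappability was known.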

Other observations

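On the SOX11 list as a whole, the chromosome that held most peaks changed along the deposited order, from chromosome 2 in the first of 10 equal bins to chromosome 13 in the last. Chromosome 13 made up 1.08% of the first bin and 22.5% of the last. Distal SOX11 sites on chromosome 13 had a median position of 18722 and those on chromosome 2 one of 6552, and chromosome 13 also had the highest density of distal sites. Within chromosomes, distal sites stood later in the list than nearer intergenic ones on 18 of 20.

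Among all words of 6 letters, those whose share in distal sites exceeded that in nearer intergenic sites by most were rich in A and T. The first was AAATGA, in 27.0% of distal and 17.9% of nearer sites, and shifted sequences differed likewise, with 27.8% and 21.2%. The word lower in distal sites by most was CCAGCC, in 21.6% and 30.7%, with 15.2% and 23.9% of shifted sequences. Pairs of the 6-letter SOX core at most 10 bases apart were present in 54 distal sites (2.66%), in 0.887% of their shifted sequences and in 2.52% of nearer intergenic sites. These words and pairs were looked at after the lists had been opened and no test was run on them.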
